A study of Homo sapiens with 2 samples.

Results

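The histone deacetylases HDAC3 to HDAC11 were followed in H1299, a line of human lung cancer cells of the non-small cell type, with and without knockdown of PHF12. The rows named HDAC3, HDAC4, HDAC5, HDAC6, HDAC7, HDAC8, HDAC9, HDAC10 and HDAC11 were taken by symbol from the table of 38637 genes, so the group holds 9 members, and all 9 were found and measured. Messenger RNA was selected by its poly(A) tail and sequenced in 2 libraries, 1 per group. One was labelled PHF12 KD, with si-phf12 in its title, and the other was labelled as having no treatment, with nc in its title. Both were of the same line and were labelled wild type, and no label says if an oligonucleotide was given to the control cells. The series asks how PHF12 acts on HDAC1 and on EGFR and AKT signalling.

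Of the 9 deacetylases, HDAC4 and HDAC11 were the furthest below the control level in the PHF12 knockdown library, at 0.644 and 0.734 times the control. HDAC10 and HDAC3 stood at 0.835 and 0.872 times the control, and HDAC7, the most abundant of the 9, stood above it at 1.11 times. HDAC5, HDAC6, HDAC8 and HDAC9 differed by no more than counting error. All 9 ratios lay below that of HDAC1, the deacetylase the study is about, which stood at 1.39 times the control. Most genes measured lay below HDAC1 too, since only 7.92% had a larger absolute log2 ratio. Together the 9 genes summed to 304 TPM (transcripts per 1000000 transcripts) in the knockdown library and 301 TPM in the control library.

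Histone deacetylases remove acetyl groups from lysines of histones and of other proteins, and the zinc-dependent ones fall into classes by sequence. Class I enzymes are mainly nuclear and work inside corepressor complexes, as HDAC1 does in the Sin3 complexes that PHF12 belongs to. Class IIa enzymes bind MEF2 transcription factors, have little catalytic activity of their own and leave the nucleus bound to 14-3-3 proteins when kinases phosphorylate them. Class IIb enzymes act largely in the cytoplasm, and HDAC11 alone makes up class IV.

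The knockdown library held 26084594 counts and the control library 24740581 counts, and protein-coding genes took 97.3% of them in both. PHF12 itself had 756 counts in the knockdown library, against 947 in the control library, a log2 ratio of −0.41 (95% counting interval −0.55 to −0.27). Its transcript thus remained at 0.753 times the control, and 11.03% of genes measured had a larger absolute ratio. HDAC4 and HDAC11, at 0.644 and 0.734 times, lay further below the control than the targeted gene. Their counting intervals overlap that of PHF12, and a difference from it was not tested. With 1 library per group no difference has a replicate check. Each compares these libraries, not the conditions, and every interval covers counting error only. In bulk RNA, fewer cells that express a gene and less RNA per cell cannot be told apart. The cytoskeletal genes VIM, KRT8 and KRT18 were abundant in both libraries, at 888 to 5349 TPM. The lung differentiation genes SFTPB, SFTPC and NKX2-1 were at or near 0, with 5 counts of NKX2-1 in the knockdown library and 17 in the control library. Markers of immune cells summed to 321 TPM in the knockdown library and 258 TPM in the control library, nearly all of it the lysosomal gene CD68, and the defining genes PTPRC and CD3E had 0 counts in both. Markers of endothelial, fibroblast, and muscle and nerve cells summed to 2.34, 1.35 and 15.2 TPM in the knockdown library and 2.78, 1.05 and 14.5 TPM in the control library.

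Ratios are given as log2 of the knockdown over the control level, from counts per 1000000 counts (CPM) scaled by TMM (trimmed mean of M-values) factors. A gene was counted as higher or lower by size when it differed at least 1.5-fold after 0.5 CPM was added to both levels. A mean of 1 CPM or more was reached by 14559 genes, called measured here, of which 1.33% were higher and 1.41% were lower by that rule. Of the 9 deacetylases, 0 were higher and 1 was lower, HDAC4. At 2-fold, 0.117% of genes were higher and 0.117% lower, with 0 members in either. With a threshold of 25% above or 20% below the control, 6.99% of genes were higher and 8.02% lower, with 0 members higher and 2 lower, HDAC4 and HDAC11. A 95% counting interval above 0 was found for 20.3% of the 14559 genes and one below 0 for 20.9%. Among the deacetylases that held for 1 gene above 0, HDAC7, and for 4 below 0, HDAC3, HDAC4, HDAC10 and HDAC11. The median log2 ratio of the 9 was −0.13, against −0.0074 over all genes measured. Of the 9, 3 lay above 0 and 6 below 0, and of the 14559 genes measured, 7040 lay above 0 and 7519 below 0.

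**Figure D1:**
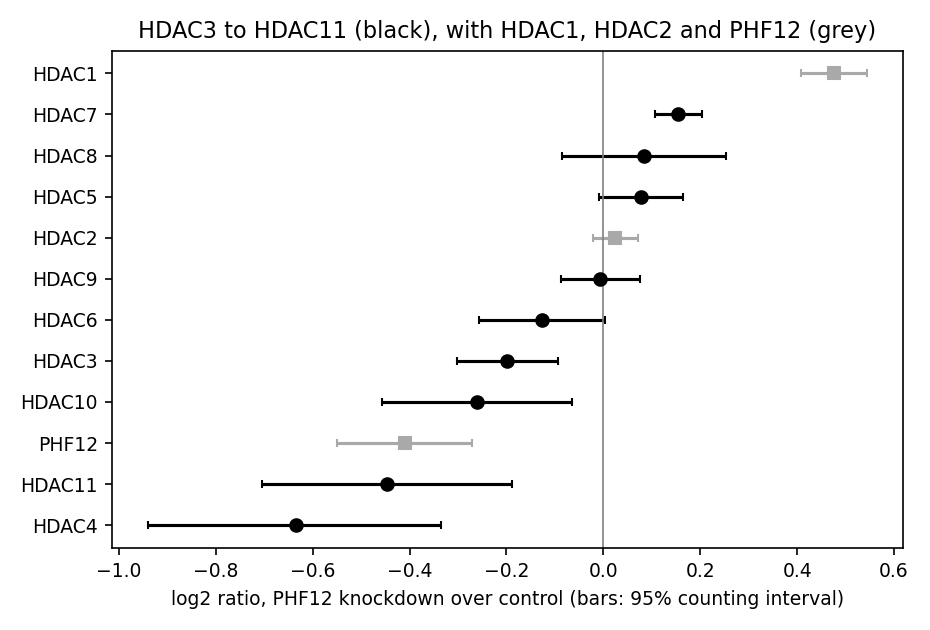
The log2 ratio of the PHF12 knockdown over the control library is plotted for each deacetylase and for PHF12, with bars for the 95% counting interval and 1 library per group. The 9 genes HDAC3 to HDAC11 (black circles) run from −0.64 for HDAC4 to 0.16 for HDAC7, all left of HDAC1 at 0.48 (grey squares mark HDAC1, HDAC2 and PHF12).

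HDAC1 and HDAC2 set the scale for class I. HDAC1 had 4330 counts in the knockdown library and 2936 in the control library, and its log2 ratio of 0.48 (0.41 to 0.54) was exceeded in size by 7.92% of genes measured. HDAC2 had 7642 and 7085 counts in the knockdown and control libraries and a log2 ratio of 0.025 (−0.022 to 0.071). The difference in log2 ratio from HDAC1, which no library scaling can move, was below 0 for all 9 members with its counting interval. It ran from −0.32 (−0.40 to −0.24) for HDAC7 to −1.11 (−1.41 to −0.81) for HDAC4. With only 7.92% of genes measured beyond HDAC1 in size, most genes lay below HDAC1 too. A place below HDAC1 is thus not particular to the members. HDAC1 took 32.6% of the summed TPM of HDAC1 to HDAC11 in the knockdown library and 25.8% in the control library.

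HDAC3 is the catalytic subunit of the NCoR corepressor complex. The gene, at chr5:141620881-141636849 (hg38, minus strand), had 1441 counts and 67.5 TPM in the knockdown library, against 1559 counts and 76.1 TPM in the control library. The knockdown library was the lower of the pair, with a log2 ratio of −0.20 (−0.30 to −0.094), and 35.5% of all genes measured had a larger absolute ratio. RELL2 starts 112 bases away on the opposite strand, so the promoter window of HDAC3 holds both starts. RELL2 had 329 counts in the knockdown library and 310 in the control library, a log2 ratio of 0.0011 (−0.23 to 0.23). DIAPH1, a formin gene 1826 bases beyond the other end of HDAC3, stood at 0.26 (0.20 to 0.31), with 6760 and 5338 counts in the knockdown and control libraries. The counting intervals of HDAC3 and RELL2 overlap, and a difference between their ratios was not tested. The window is shown because both genes start in it. It spans 250 bases before to 50 after the HDAC3 start (RefSeq, GRCh38.p14, chr5:141636800-141637099, minus strand), with GC boxes, GGGCGG on either strand, in capitals. HDAC3 starts at base 251 and RELL2 at base 139 of the window, on the other strand.
HDAC3 promoter: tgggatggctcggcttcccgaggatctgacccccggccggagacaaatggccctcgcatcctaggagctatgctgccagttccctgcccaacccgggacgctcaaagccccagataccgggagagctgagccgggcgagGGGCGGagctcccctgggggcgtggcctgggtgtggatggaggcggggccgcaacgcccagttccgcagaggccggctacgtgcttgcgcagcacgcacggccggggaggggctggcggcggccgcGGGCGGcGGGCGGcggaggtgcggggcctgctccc

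Genes of the NCoR complex were near the control level. NCOR1 encodes a corepressor that binds and activates HDAC3. NCOR1 had 40.9 TPM in the knockdown library and 42.2 TPM in the control library, a log2 ratio of −0.071 (−0.13 to −0.014). TBL1X, TBL1XR1 and GPS2, also core subunits, had ratios of −0.071, 0.017 and −0.042 with intervals that span 0. CORO2A, a coronin found with the complex, stood at 0.32 (0.093 to 0.55) on 366 counts in the knockdown library and 276 in the control library. None of these genes passed 1.5-fold, and of all genes measured only 1.33% were higher and 1.41% lower by that rule.

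HDAC8, the class I enzyme that deacetylates the cohesin subunit SMC3, lies at chrX:72329516-72573099 on the minus strand. Its counts were 610 in the knockdown library and 543 in the control library, with 10.4 and 9.69 TPM. The log2 ratio of 0.083 (−0.086 to 0.25) did not exceed counting error. Among the 13 genes of the cohesin cycle, 4 had an interval above 0, 4 had one below 0 and 0 passed 1.5-fold, with a median of −0.010. Of all genes measured, 20.3% had an interval above 0 and 20.9% had one below 0. Past 1.5-fold, 1.33% of them were higher and 1.41% lower. SMC3 itself had 69.6 TPM in the knockdown library and 71.2 TPM in the control library, a ratio of −0.056 (−0.12 to 0.012). The cohesin release factor WAPL stood at 0.17 (0.095 to 0.25) and PDS5B, which also regulates cohesin release, at 0.17 (0.036 to 0.30). ESCO2, an acetyltransferase for the SMC3 lysines that HDAC8 deacetylates, stood at −0.34 (−0.58 to −0.11) on 271 counts in the knockdown library and 324 in the control library.

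**Figure D2:**
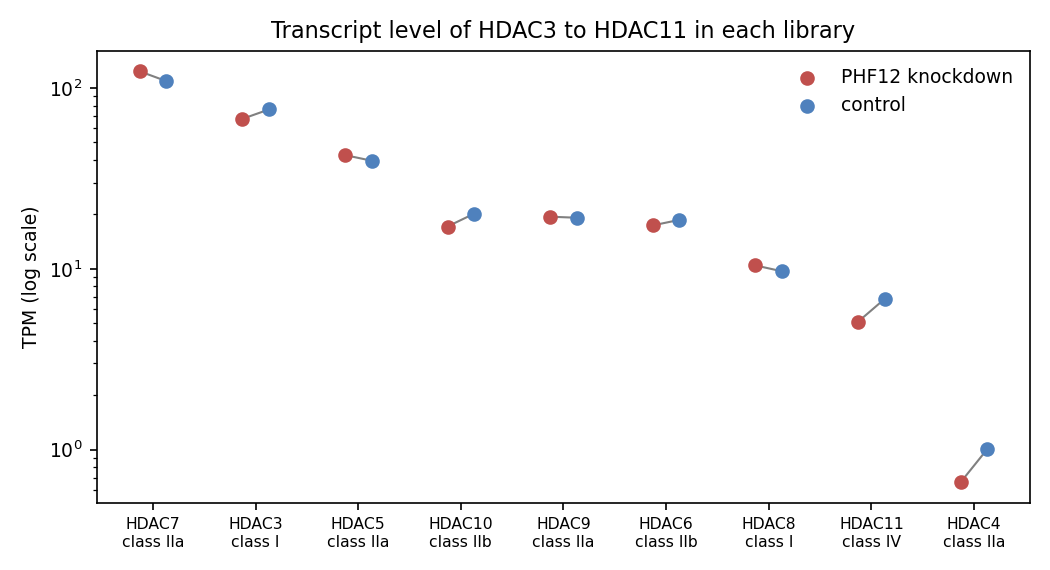
Levels of the 9 deacetylases in TPM (log axis) are plotted for the PHF12 knockdown (red, left) and control (blue, right) libraries, joined by a line, in the order of the control levels and with the class under each name. HDAC7 is the highest in both, at 124 and 109 TPM, and HDAC4 the lowest, at 0.661 and 1.01 TPM.

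HDAC7 had the highest level of the 9 in both libraries. This class IIa enzyme is known for its part in blood vessels and developing T cells. The gene, at chr12:47782722-47820612 on the minus strand, had 7517 counts and 124 TPM in the knockdown library, against 6366 counts and 109 TPM in the control library. Its log2 ratio was 0.16 (0.11 to 0.20), the highest of the 9. At this depth such a difference was common in these libraries, and 27.9% of the 727 genes with a mean count within 1.5-fold of that of HDAC7 had a larger absolute ratio. The far end of HDAC7 shares 32 bases with SLC48A1 on the opposite strand, which had 1595 counts in the knockdown library and 1575 in the control library.

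HDAC5 and HDAC9 are class IIa enzymes known for restraining muscle growth genes through MEF2. HDAC5, at chr17:44076753-44123651 on the minus strand, had 2294 counts and 42.6 TPM in the knockdown library, against 2049 counts and 39.6 TPM in the control library. The log2 ratio was 0.078 (−0.0083 to 0.16), and with a trend on GC content and transcript length removed it was 0.13 (0.045 to 0.22). HDAC9 spans chr7:18086825-19002416 on the plus strand and had 2528 counts and 19.4 TPM in the knockdown library, against 2394 counts and 19.2 TPM in the control library. At −0.0061 (−0.087 to 0.075) its ratio was the closest to 0 of the 9, and 97.5% of genes measured had a larger one in size. TWIST1, the nearest gene beyond its end and a transcription factor of mesenchymal cells, lies 110631 bases away and stood at −0.55 (−0.76 to −0.33), with 303 counts in the knockdown library and 417 in the control library.

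HDAC4 was the lowest of the 9 in level and in ratio. This class IIa enzyme is known for its control of cartilage and muscle genes and lies at chr2:239048168-239401649 on the minus strand. It had 155 counts and 0.661 TPM in the knockdown library, against 227 counts and 1.01 TPM in the control library, the fewest counts of any member. The log2 ratio was −0.64 (−0.94 to −0.33), or 0.644 times the control (0.522 to 0.793). Larger absolute ratios were found for 3.51% of all genes measured and for 4.12% of the 1772 genes of like depth. With the 0.5 CPM added the fold was 1.51, just past the threshold. It was 1.49 with DESeq2 size factors, 1.47 with 1 CPM added and 1.30 from TPM with 0.5 TPM added, so under these settings no member passed. HDAC4-AS1, which overlaps the first 214 bases of the gene on the opposite strand, had 8 counts in the knockdown library and 9 in the control library, and the 5 other genes within the HDAC4 span had 0 counts in both.

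The 3′ UTR of HDAC4 holds CATCGAA, a 7-base word that was picked out earlier in these same data, with ACATCGA, because it was frequent in genes lower in the knockdown library. HDAC4 is among the lower genes, so the match is a description and no separate evidence. The word lies at chr2:239048785-239048791 on the minus strand (GRCh38, GENCODE release 29, transcript HDAC4-215). It is held by 1.63% of the 12323 protein-coding genes measured that have an annotated 3′ UTR, and by 4.60% of the 1108 among them with a 3′ UTR nearly as long as the 4929 bases of HDAC4, between 3944 and 6158 bases. HDAC6 holds ACATCGA near the end of its coding sequence, and the coding sequence of PHF12 holds both, overlapping. The other 7 members hold neither in this annotation. TCGGAGA, a word picked out among genes higher in the knockdown library, was found in the coding sequence of HDAC7 and HDAC10 and in the 5′ UTR of HDAC11, on both sides of the control level, and in the 3′ UTR of PHF12. The HDAC4, HDAC6 and PHF12 sites of CATCGAA and ACATCGA are shown as windows of 30 bases in transcript sense, with the words in capitals. The HDAC4 window is chr2:239048773-239048802 (minus strand), the HDAC6 window is chrX:48824231-48824260 (plus strand) and the PHF12 window crosses an exon junction, with its words at chr17:28919152-28919159 (minus strand).
HDAC4 3′ UTR: attatactttgCATCGAAaggaaaccattt
HDAC6 coding: ggtcctcagctACATCGAcctgtcagcctg
PHF12 coding: gtgtccgaatcACATCGAAcatgtggtgct

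The measured partners of class IIa enzymes were all within 1.5-fold, as were most genes measured, with 1.33% higher and 1.41% lower. Intervals above 0 were found for 20.3% of genes measured and intervals below 0 for 20.9%. MEF2 factors and other class IIa binding proteins had a median of −0.069 over 9 genes, with 2 intervals above 0 and 4 below 0. MEF2B stood at −0.49 (−0.78 to −0.21), with 180 counts in the knockdown library and 239 in the control library, and RUNX2, a transcription factor of bone that HDAC4 binds, at −0.23 (−0.41 to −0.056). MEF2C stood at 0.20 (0.069 to 0.34), with 1007 counts in the knockdown library and 825 in the control library. The 14-3-3 genes had a median of 0.054 over 7 genes, with 4 intervals above 0 and 1 below 0. Of these YWHAE stood at 0.19 (0.16 to 0.23), YWHAG at 0.17 (0.12 to 0.21) and YWHAZ at 0.13 (0.11 to 0.15). Kinases that phosphorylate class IIa enzymes had a median of −0.063 over the 13 of 15 listed that were measured, with 1 interval above 0 and 3 below 0. SIK2, a salt-inducible kinase, stood at 0.15 (0.058 to 0.24), and the calcium-activated kinases CAMK1D and CAMK4 at −0.26 (−0.49 to −0.026) and −0.10 (−0.19 to −0.013).

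HDAC6, the class IIb enzyme that deacetylates alpha-tubulin and brings ubiquitinated proteins to aggresomes, lies at chrX:48801398-48824982 on the plus strand. It had 951 counts and 17.4 TPM in the knockdown library, against 979 counts and 18.7 TPM in the control library. The log2 ratio was −0.13 (−0.26 to 0.0037), so the interval reached 0. The list of its substrates and partners had a median of −0.022 over 12 genes, with 4 intervals above 0 and 4 below 0. Over all genes measured the shares were 20.3% above 0 and 20.9% below 0. CTTN, which encodes the actin-binding substrate cortactin, stood at 0.30 (0.26 to 0.35), with 230 TPM in the knockdown library and 183 TPM in the control library. The autophagy receptor gene SQSTM1 stood at −0.20 (−0.21 to −0.18), with 2240 and 2522 TPM in the knockdown and control libraries. ATAT1, the acetyltransferase that opposes HDAC6 on tubulin, stood at −0.30 (−0.59 to −0.016) on 190 counts in the knockdown library and 221 in the control library.

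HDAC10, the class IIb enzyme that removes acetyl groups from polyamines, lies at chr22:50245183-50251265 on the minus strand. It had 408 counts and 17.1 TPM in the knockdown library, against 461 counts and 20.2 TPM in the control library. The knockdown library was lower, with a log2 ratio of −0.26 (−0.46 to −0.066), and larger absolute ratios were found for 24.9% of all genes measured and for 23.1% of the 2498 genes of like depth. With the trend on GC content and transcript length removed, the ratio was −0.16 and the interval reached over 0 (−0.35 to 0.038). TUBGCP6 starts 155 bases beyond the end of HDAC10 on the same strand and stood at −0.11 (−0.25 to 0.028), and MAPK12, on the other side, at 0.080 (−0.059 to 0.22). Polyamine genes had a median of −0.0082 over 12 genes, with 3 intervals above 0 and 4 below 0. Over all genes measured the shares were 20.3% above 0 and 20.9% below 0. OAZ1, the antizyme that inhibits ornithine decarboxylase, stood at −0.40 (−0.43 to −0.36), with 974 TPM in the knockdown library and 1261 TPM in the control library. The spermidine synthase gene SRM stood at −0.30 (−0.38 to −0.22), and SAT1, which acetylates the polyamines that HDAC10 deacetylates, at 0.17 (0.079 to 0.26).

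HDAC11, the single class IV enzyme, removes fatty acyl groups from lysines. It lies at chr3:13478903-13506416 on the plus strand and had 225 counts and 5.10 TPM in the knockdown library, against 289 counts and 6.83 TPM in the control library. The log2 ratio of −0.45 (−0.70 to −0.19) was the second lowest, with larger absolute ratios in 9.26% of all genes measured and in 8.84% of the 2003 genes of like depth. FBLN2, the nearest gene downstream and an extracellular matrix gene, stood at −0.44 (−0.62 to −0.27), and NUP210, a nuclear pore gene on the other side, at −0.088 (−0.16 to −0.012). HDAC11-AS1, which overlaps the start of HDAC11 on the opposite strand, had 0 counts in the knockdown library and 1 in the control library.

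HDAC4, HDAC11 and HDAC10 had the lowest ratios and also the fewest counts of the 9. HDAC8, the next in depth, stood at 0.083, with an interval that spans 0. The genes of like depth had a median log2 ratio of −0.018 for HDAC4, −0.031 for HDAC11 and −0.034 for HDAC10. Whether depth has a part in the ratios of these members was not tested.

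**Figure D3:**
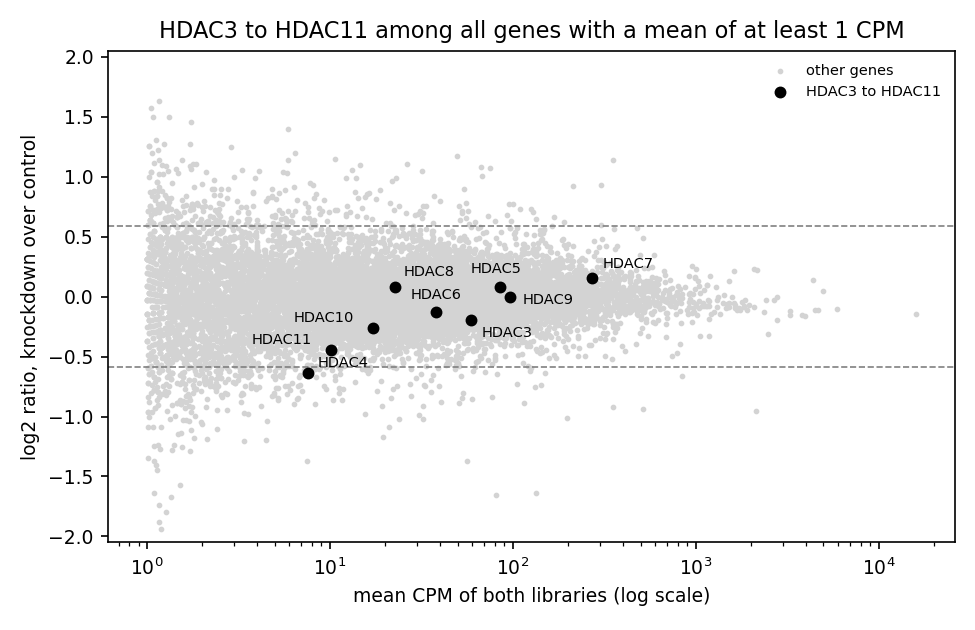
The log2 ratio of the PHF12 knockdown over the control library is plotted against the mean CPM of both (log axis) for the 14559 genes measured, with HDAC3 to HDAC11 in black and dashed lines at 1.5-fold without added CPM. HDAC4 lies just below the lower dashed line, at −0.64, and HDAC7, at the right, at 0.16.

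Promoter windows of the same kind as that of HDAC3 were available for 8 of the 9 members (RefSeq, GRCh38.p14; the window nearest to the listed start was taken). CpG dinucleotides numbered 9 for HDAC8 to 41 for HDAC9, with a median of 14 over all 35116 windows in the table. A GC box was found on either strand in 6 of the 8 windows and in 45.0% of all windows, with overlapping matches counted. HDAC7 and HDAC8 held none, in windows of starts 709 and 256 bases inside the listed genes. CCAAT, on either strand, was found for 1 member, HDAC10, and in 34.6% of all windows. The windows of HDAC4 (chr2:239401600-239401899, minus strand) and HDAC11 (chr3:13480056-13480355, plus strand), the members with the lowest ratios, are shown with GC boxes in capitals. The HDAC11 window belongs to a start 1403 bases inside the listed gene. They held 1 and 5 GC boxes, and 40 and 30 CpG dinucleotides.
HDAC4 promoter: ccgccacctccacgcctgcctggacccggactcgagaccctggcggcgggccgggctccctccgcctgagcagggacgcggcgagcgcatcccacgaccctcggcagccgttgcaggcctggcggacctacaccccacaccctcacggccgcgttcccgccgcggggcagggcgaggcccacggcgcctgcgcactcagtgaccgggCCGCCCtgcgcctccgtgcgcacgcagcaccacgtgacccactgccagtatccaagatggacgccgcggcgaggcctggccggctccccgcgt
HDAC11 promoter: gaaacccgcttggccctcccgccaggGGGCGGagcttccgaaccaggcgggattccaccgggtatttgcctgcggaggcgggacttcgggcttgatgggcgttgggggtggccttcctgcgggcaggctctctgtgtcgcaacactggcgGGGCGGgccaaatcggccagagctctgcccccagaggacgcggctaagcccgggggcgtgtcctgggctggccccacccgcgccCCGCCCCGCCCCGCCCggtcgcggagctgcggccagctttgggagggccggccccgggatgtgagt

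The order of levels differed little between libraries. In the knockdown library it was HDAC7, HDAC3, HDAC5, HDAC9, HDAC6, HDAC10, HDAC8, HDAC11 and HDAC4, and in the control library HDAC10 stood before HDAC9 and HDAC6. Neighbours in this order differed beyond counting error except HDAC6 and HDAC10 in the knockdown library, at a TPM ratio of 1.01 (0.902 to 1.14). In the control library the exceptions were HDAC10 and HDAC9, at 1.05 (0.951 to 1.16), and HDAC9 and HDAC6, at 1.03 (0.953 to 1.11). TPM depends on the listed gene length, which was 25299 bases for HDAC4, 2.81 times its longest coding transcript in GENCODE release 29. The median of that quotient over 12366 protein-coding genes was 1.12. Per kilobase of the longest coding transcript, HDAC4 had 0.659 CPM in the knockdown library and 1.02 in the control library, still the lowest of the 9. On that scale HDAC8 had 4.10 CPM in the knockdown library and 3.87 CPM in the control library, and HDAC11 had 2.91 CPM in the knockdown library and 3.96 CPM in the control library. HDAC11 thus stood at 0.709 (0.606 to 0.827) times HDAC8 in the knockdown library, and in the control library, at 1.02 (0.884 to 1.18) times, they did not differ beyond counting error. The place of HDAC10 before HDAC9 and HDAC6 in the control library was not seen on that scale, where HDAC10, at 6.95 CPM, stood below HDAC6, at 9.46 CPM, and below HDAC9.

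By class, class IIa took the largest part of the summed TPM of the 9 genes. HDAC4, HDAC5, HDAC7 and HDAC9 summed to 186 TPM in the knockdown library and 169 TPM in the control library, or 61.3% and 56.3% of the 9 genes. HDAC3 and HDAC8 summed to 77.9 TPM in the knockdown library and 85.8 TPM in the control library, or 25.6% and 28.5%. HDAC6 and HDAC10 summed to 34.5 TPM in the knockdown library and 38.9 TPM in the control library, or 11.4% and 12.9%. HDAC11 made up 1.68% in the knockdown library and 2.27% in the control library. Most of the class IIa total was HDAC7, so the class stood higher while HDAC4 stood lower. These shares leave out HDAC1 and HDAC2. With them, class I was the largest class, at 60.5% of HDAC1 to HDAC11 in the knockdown library and 58.0% in the control library. It then stood higher in the knockdown library, at 347 TPM against 297 TPM.

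**Figure D4:**
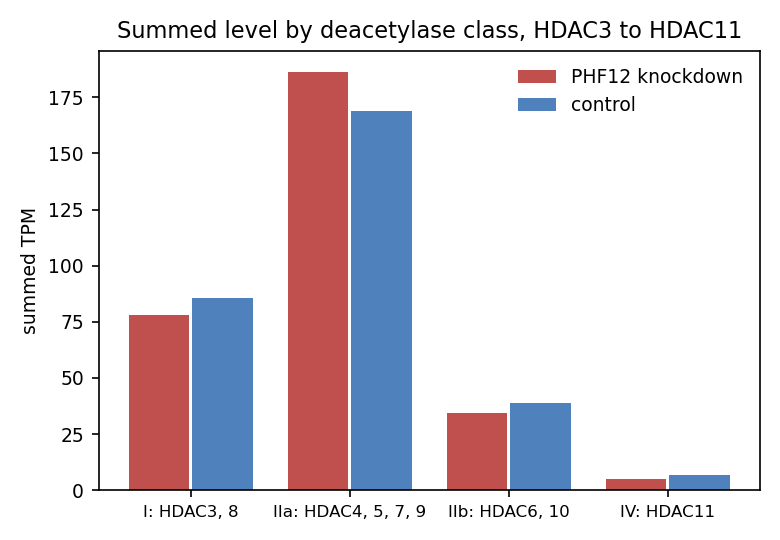
Bars give the summed TPM of HDAC3 to HDAC11 by class in the PHF12 knockdown (red, left) and control (blue, right) libraries, 1 library each. Class IIa stands at 186 and 169 TPM, and classes I (HDAC3 and HDAC8 only), IIb and IV are each lower in the knockdown library.

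Enzymes that add acetyl groups and proteins that read them were also near the control level. Lysine acetyltransferases had a median log2 ratio of 0.068 over 14 genes, with 4 intervals above 0, 1 below 0 and 0 genes past 1.5-fold. Of all genes measured, 20.3% had an interval above 0 and 20.9% had one below 0. Past 1.5-fold, 1.33% of them were higher and 1.41% lower. KAT8, an acetyltransferase of histone H4, stood at 0.28 (0.093 to 0.46), with 548 counts in the knockdown library and 426 in the control library. The coactivator gene NCOA1 stood at 0.15 (0.030 to 0.27) and KAT6A at 0.14 (0.022 to 0.26). EP300 and CREBBP, the broad coactivators, stood at 0.051 and −0.031, with intervals that span 0. BRD2, a bromodomain reader of acetylated histones, stood at −0.11 (−0.15 to −0.072), and BRD3, another reader, at 0.081 (−0.0017 to 0.16).

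**Figure D5:**
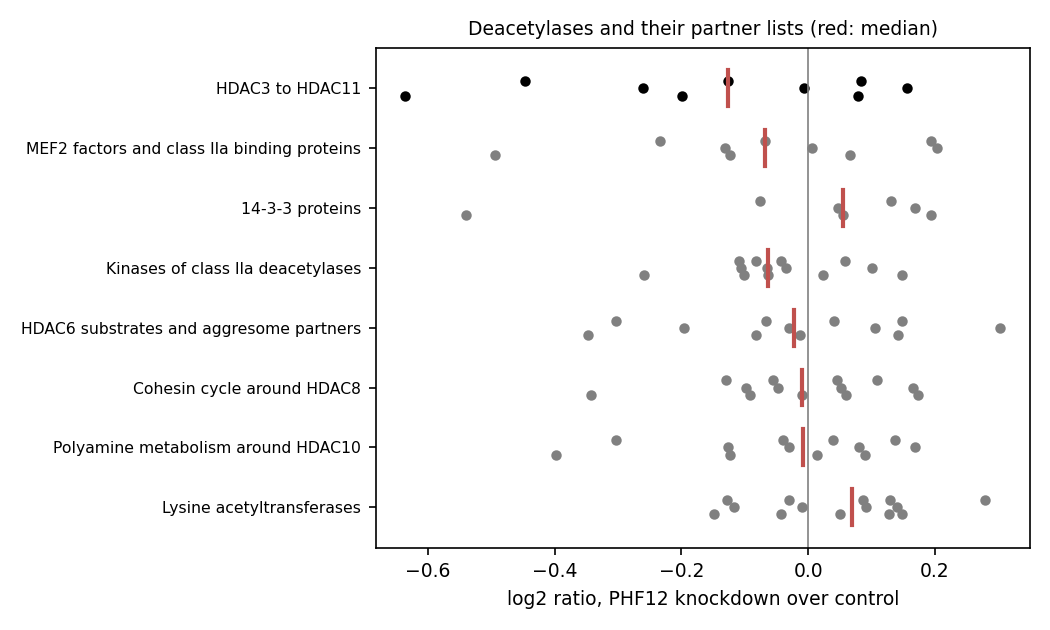
Each point is the log2 ratio of the PHF12 knockdown over the control library for 1 gene, for HDAC3 to HDAC11 (black) and for 7 lists of partner genes (grey), with the median in red. The deacetylases spread from −0.64 to 0.16 around a median of −0.13, and the partner lists have medians between −0.069 and 0.068.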

How the data were processed

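RNA-seq was measured in 2 libraries of H1299 cells, 1 per group, grouped by their treatment labels. Per the submitters' processing notes, HISAT2, HTSeq and hg38 were used, with versions and strandedness not stated. The authors deposited raw counts per gene, with totals of 26084594 for the knockdown and 24740581 for the control library, and TPM, which equal counts per listed length scaled to 1000000 to within 1e-06. How the listed lengths were made is not stated.

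From the deposited counts, TMM factors were computed with edgeR 4.0.16 (R 4.3.3) and were 1.00 for the knockdown and 0.997 for the control library. Genes averaging 1 CPM or more counted as measured. Ratios of single genes carry no pseudocount, and the rule of size, at least 1.5-fold, adds 0.5 CPM. Intervals are exact conditional Clopper-Pearson 95% intervals for 2 Poisson counts, except differences from HDAC1, which use the normal approximation. They cover counting error only, and reads without molecular identifiers are not independent molecules. With 1 library per group no test was made. The intervals and the rule were run on simulated Poisson counts, the model that the intervals assume. Such counts cannot show error beyond counting.

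Some genes next to or overlapping a member are named, and others with counts were left out, among them PHKA1, HROB, G6PC3 and RAPGEF3. Genes named by rule are the 9 members, PHF12, HDAC1 and HDAC2, and from each partner list the 3 genes with the largest absolute log2 ratio and an interval off 0. Genes of the NCoR complex, SMC3, EP300, CREBBP, BRD3 and the cell markers were named outside that rule, after their values were seen, and some listed genes are not reported here. The members, lists and words were chosen with earlier results of these data known. Alternatives were scaling by total counts and by DESeq2 1.42.0 size factors, TPM, pseudocounts, filters and folds. The trend on GC content and length, and lengths from GENCODE release 29, were chosen after seeing the data. Since strandedness is not stated, HDAC4 and HDAC4-AS1, or HDAC7 and SLC48A1, may share reads. Python 3.11.15 was used with scipy 1.17.1, numpy 2.4.6 and pandas 2.3.3, and matplotlib 3.10.9 for figures.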

Additional observations from a re-analysis of the deposited data

How the results depend on the processing

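No paired analysis was possible because each group has 1 library. No library could be left out, for the same reason. The log2 ratios of the 9 deacetylases stayed within their main counting intervals under total counts, DESeq2 size factors, TPM, pseudocounts of 0.1 and 1 CPM, and removal of the GC and length trend, except HDAC7, which was 0.22 with that trend removed. That trend, chosen after seeing the data, also put the interval of HDAC5 above 0, at 0.13 (0.045 to 0.22), and that of HDAC10 over 0. Over these 6 alternatives HDAC4 kept between −0.64 and −0.56, and HDAC11 between −0.44 and −0.38. A change of scaling, TPM included, moves all genes alike. The median over genes measured was −0.0074 with TMM and 0.018 with TPM, the furthest from it. So small a shift could not take a member out of its interval, so for scaling that outcome was fixed in advance.

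The number of members at least 1.5-fold lower was 1. It was 0 with DESeq2 size factors, with TPM after 0.5 TPM was added, with 1 CPM added and at 2-fold. At 25% above or 20% below the control it was 2, HDAC4 and HDAC11. From TPM with nothing added, the log2 ratio of HDAC4 was −0.61, past 1.5-fold. Over all genes, 193 were higher and 205 lower. The balance turned with total counts, 203 higher and 195 lower, with DESeq2 size factors, 218 and 186, and with TPM, 214 and 155. With 1 CPM added the counts were 142 and 132. Without the filter the higher and lower counts were 330 and 345, with at least 5 CPM 109 and 96, at 2-fold 17 and 17, and at 25% above or 20% below 1018 and 1168. Shares by class depend on the unit. From CPM, class I took 12.7% of the 9 genes in the knockdown and 14.1% in the control library, class IIa 77.5% and 74.2%, class IIb 8.43% and 9.69%, and class IV 1.40% and 1.94%, since CPM gives long genes more weight. Depth limits HDAC4, whose interval runs from 0.522 to 0.793 times the control.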
